A study of Homo sapiens with 18 samples.

Results

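The 54 genes described here carry out the last steps of the cell cycle, from entry into mitosis to the division of the cell. They were taken by symbol from a list of kinases, kinesins, kinetochore and spindle genes, proposed with earlier results of these data known, and sorted into 10 classes by function. The list is 54 of the 43236 gene symbols counted, and all 54 were among the 16291 genes with enough counts to be tested. The cells were NCI-H1693, an established line of human lung cancer (the non-small cell kind), which is SMARCA4-deficient by its labels. Groups of 3 libraries were grown with 50 nM PRT3789 or with DMSO as the control for 6, 48 or 72 h, which gives 6 groups and 18 libraries. PRT3789 is a degrader of SMARCA2, which together with SMARCA4 makes up the pair of ATPases, either of which can drive a SWI/SNF chromatin remodelling complex. It removes protein, so the SMARCA2 transcript (755 to 1410 counts per library) does not check the treatment. The study used 1 cell line, and the labels do not say whether the 3 libraries of a group came from separate cultures, so every p below measures the spread between these libraries, which may be technical.

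Cells enter mitosis when CDK1, bound to its cyclins, is switched on by the CDC25 phosphatases. PLK1 and the Aurora kinases then drive spindle assembly, kinesins and microtubule-bundling proteins move and align the chromosomes, and the spindle checkpoint holds back the anaphase-promoting complex until every kinetochore is attached. Most of these genes are transcribed late in the cycle, when MYBL2 and FOXM1 join the MuvB complex at a promoter element called the cell cycle genes homology region (CHR), often near CCAAT boxes bound by NF-Y, so their summed transcript level is widely read as a measure of how many cells are in G2 and mitosis. In RNA from whole cultures, fewer cells in these phases and less of each RNA per cell cannot be told apart.

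Library totals ran from 23154484 to 31094797 counts. Among the markers of the line, EPCAM had 14815 to 24638 counts and KRT18 37115 to 121421, while the lung lineage factor NKX2-1 had 4 to 27. The leukocyte gene PTPRC had 2 to 23 counts and the endothelial gene PECAM1 0 to 5. The endothelial and lung lineage lists of 5 genes each summed to less than 5 CPM in every library, with SFTPC at 0 counts. The endothelial list summed to 2.35 to 3.19 CPM in DMSO and 0.373 to 0.696 in PRT3789 at 48 h, then 2.95 to 3.82 and 0.451 to 0.696. In it CDH5 (0 to 91 counts) was lower, with means of 2.3 CPM against 0.0257 at 48 h (adjusted p = 1.6e-07) and 2.84 against 0.0232 at 72 h (adjusted p = 4.86e-08). The 5 epithelial markers were all lower in PRT3789 at 48 h, beside 20.9% of all genes, and 3 of 5 at 72 h, beside 22%. The log2 fold changes were -1.29 and -1.36 (KRT8), -1.35 and -1.43 (KRT18) and -0.685 and -0.994 (CDH1) at 48 and 72 h. EPCAM (-0.30 and -0.07) and KRT19 (-0.19 and 0.07) moved less and were not called at 72 h. The summed levels of the 5, mostly from KRT8 and KRT18, were 10203 to 11004 CPM in DMSO and 4659 to 4903 in PRT3789 at 48 h. At 72 h they were 9146 to 9898 and 4114 to 4329. The 5 fibroblast markers summed to 109 to 126 CPM and 85.5 to 88.5 at 48 h, then 119.7 to 130.1 and 100 to 113, mostly from LUM (1671 to 3453 counts), with 1 gene called lower at each of these times and 1 higher at 48 h. Their part in the results below was not tested. At 6 h the libraries of a group differed in step with transcript length. A library's deviation was taken from the mean of all libraries of its time, both arms together. Across 10862 genes, its Spearman correlation with length was 0.441 in DMSO replicate 1 and 0.291 and 0.458 in PRT3789 replicates 1 and 2. It was between -0.351 and -0.446 in the other 3. CKS2 and MKI67, the shortest and the longest of the 54 genes, spread widely at 6 h, as did PTTG1 (values below). Whether the length trend lies behind their spread was not tested. In the 48 h libraries the same correlation went with the treatment, at -0.012, -0.297 and -0.234 in DMSO and 0.234, 0.141 and 0.241 in PRT3789, and in those of 72 h it lay between -0.13 and 0.165.

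Promoter windows from RefSeq (GRCh38.p14, 250 bases before to 50 after a start site) were found for 45 of the 54 genes, 55 windows in all. A CHR, searched as TTTGAA or TTCGAA on both strands, was in 37 of the 55 windows (67.3%), against 16.4% of all 35116 windows in the table. CCAAT, also on both strands, was in 74.5% against 34.6%, and both motifs together were in 58.2% against 6.38%. The 8 stretches that follow show what these letters look like in genes of different function. They are those that hold a CCAAT followed within 60 bases by a CHR, end before the start site and touch no annotated exon (GENCODE 44). Capitals mark complete matches of either motif, where ATTGG is a CCAAT box read from the opposite strand and TTCAAA is a CHR read from there, and each sequence is written 5′ to 3′ on the strand of its gene.
CDC20, chr1:43358866-43358936, plus strand, outside genes: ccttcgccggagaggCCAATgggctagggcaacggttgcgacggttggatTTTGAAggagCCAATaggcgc
HJURP, chr2:233854626-233854689, minus strand, outside genes: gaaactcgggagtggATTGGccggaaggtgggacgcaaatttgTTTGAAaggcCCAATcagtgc
CKS2, chr9:89311128-89311186, plus strand, outside genes: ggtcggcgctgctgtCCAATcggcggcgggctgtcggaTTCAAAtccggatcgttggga
KIF11, chr10:92593062-92593122, plus strand, in an intron of a longer KIF11 gene model: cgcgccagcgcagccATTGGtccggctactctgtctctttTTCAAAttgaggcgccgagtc
MKI67, chr10:128126450-128126536, minus strand, outside genes: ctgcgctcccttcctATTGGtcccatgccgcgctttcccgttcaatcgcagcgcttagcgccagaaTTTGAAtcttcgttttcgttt
CCNF, chr16:2429326-2429382, plus strand, outside genes: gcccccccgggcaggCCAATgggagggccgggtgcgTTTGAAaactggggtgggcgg
TOP2A, chr17:40418027-40418071, minus strand, outside genes: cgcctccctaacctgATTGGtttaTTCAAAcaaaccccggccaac
KIF4A, chrX:70290031-70290090, plus strand, in an intron of the gene PDZD11: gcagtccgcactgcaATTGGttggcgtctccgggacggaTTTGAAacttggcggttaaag

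In KIF4A, KIF11 and CKS2 the first bases of the 2 motifs lie 24, 25 and 23 bases apart. In TOP2A the distance is 9 bases and in MKI67 it is 51. In the 55 windows the CCAAT matches gathered upstream of the start and the CHR matches around it. A CHR began 50 to 26 bases before it in 23.6% of these windows, against 1.51% of all windows. From 0 to 24 bases after it the share with a CHR was 14.5% against 1.43%. A CCAAT began 75 to 51 bases before it in 45.5% against 7.62%. A match is a run of letters and not a measured binding site.

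**Figure D1:**
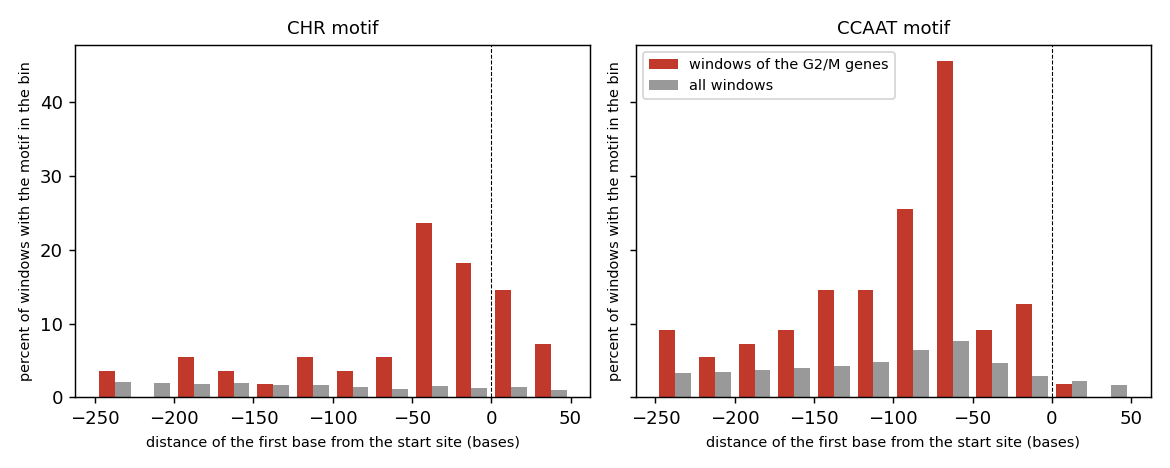
Percent of promoter windows with a CHR (left) or a CCAAT (right) whose first base falls in each bin of 25 bases, by distance from the start site (dashed line), for the 55 windows of the G2/M genes (red) and all 35116 windows (grey). The red bars peak at 23.6% for the CHR and 45.5% for CCAAT, against 1.51% and 7.62% for all windows in the same bins.

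The comparison of PRT3789 with DMSO at each time asks how these genes change under the compound and when. Loss of SMARCA2 protein was not measured in these data. After 48 h nearly the whole program had fallen, and it stayed low at 72 h, while at 6 h no gene of it was called. The summed level of the 54 genes, in CPM (counts scaled to a common library total), was 4858, 4828 and 5101 in the DMSO libraries of 48 h and 2948, 2969 and 2901 in the PRT3789 libraries. At 72 h it was 5239, 5177 and 5234 against 2859, 2877 and 2753. PRT3789 libraries thus held 59.6% of the DMSO mean at 48 h and 54.2% at 72 h, with no overlap. At 6 h the sums were 7735, 7571 and 7682 in DMSO and 7471, 7365 and 7473 in PRT3789, or 97.1% of the DMSO mean.

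**Figure D2:**
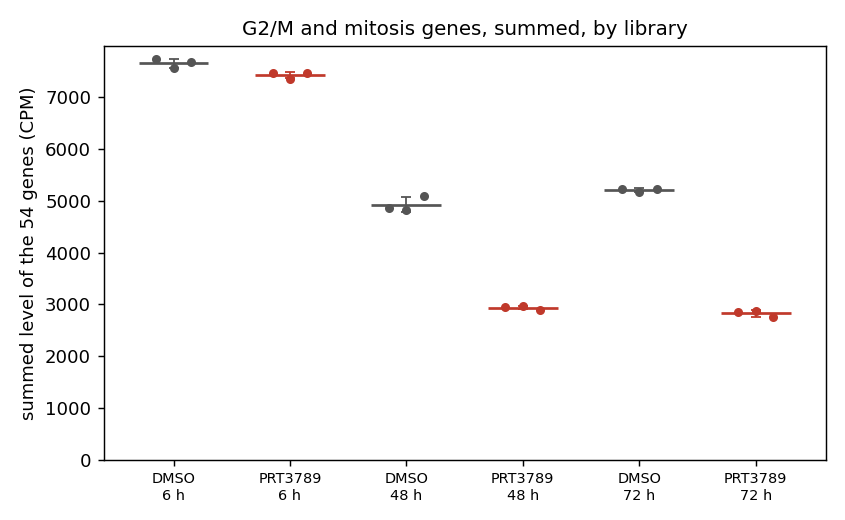
Summed CPM of the 54 genes in each library (points), with the mean (line) and SD (bar) of the 3 libraries of a group, DMSO in grey and PRT3789 in red. The PRT3789 libraries of 48 and 72 h lie between 2753 and 2969 CPM, the DMSO libraries of these times between 4828 and 5239, and all libraries of 6 h between 7365 and 7735.

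At 48 h 52 of the 54 genes were lower in PRT3789 (edgeR quasi-likelihood test, Benjamini-Hochberg adjusted p under 0.05 over all 16291 genes), where 20.9% of all genes were called lower. None was higher, where 21.2% of all genes were. At 72 h 53 of the 54 were lower, beside 22% of all genes, and none was higher, beside 21.3%. The median log2 fold change (log2FC) of the 54 was -0.81 at 48 h and -0.97 at 72 h, against medians of 0.01 and 0.01 over all genes tested. Every PRT3789 library lay below every DMSO library of its time for 54 of 54 genes at 48 h (27.5% of all genes) and for 54 of 54 at 72 h (30.7%). A fall of at least 2-fold was reached by 9 genes at 48 h (6.71% of all genes) and 24 at 72 h (7.49% of all genes), and the estimate was more negative at 72 h for 45 of the 54. The libraries of the 48 and 72 h comparisons are separate.

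At 6 h edgeR called 0 of the 54 genes lower, where 3.04% of all genes were, and 0 higher, where 1.28% were. At an unadjusted p under 0.05 the count was also 0 in edgeR, in DESeq2 and in limma-voom, which at that level had 2365, 2388 and 2337 of all 16291 genes. With each time fitted apart in edgeR it was again 0, beside 1326 of 15061 genes. After adjustment that fit called 147 genes at 6 h, against 705 in the model of all libraries, so the 6 h shares depend on the pooled spread. The log2FC ran from -0.26 to 0.11, with a median of -0.04. In HJURP, HMMR and FAM83D every PRT3789 library of 6 h lay below every DMSO library, as in 8.35% of all genes. TACC3 separated the other way, at 198, 209 and 206 CPM with PRT3789 against 190, 196 and 193 with DMSO. It was not called (edgeR, adjusted p = 0.622), and the share of all genes that separate upward was not counted. The spread was wider at this time: the median SD of log2 CPM over the 54 genes for DMSO and PRT3789 in turn was 0.136 and 0.133 at 6 h, later falling to 0.0964 and 0.0568 (48 h) and 0.0553 and 0.0526 (72 h).

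**Figure D3:**
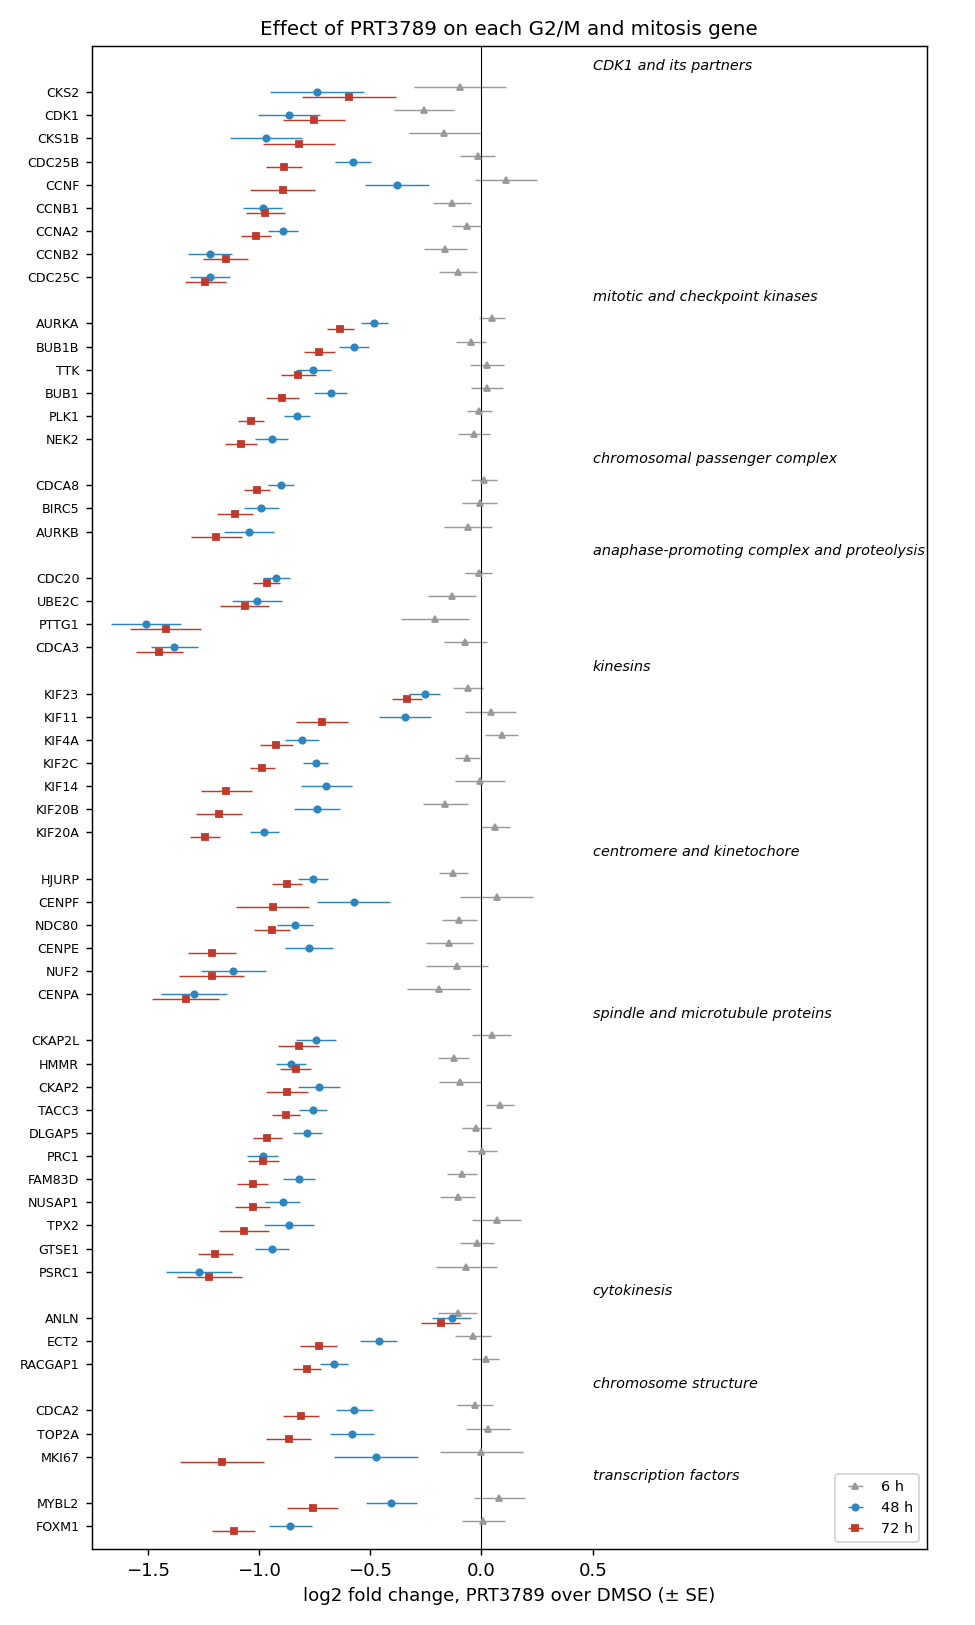
Log2 fold change of PRT3789 over DMSO for each of the 54 genes by class, with the standard error (bars), at 6 h (grey triangles), 48 h (blue circles) and 72 h (red squares). The 6 h values lie between -0.26 and 0.11, while at 48 and 72 h the values of all genes are below 0, from -1.51 in PTTG1 at 48 h to -0.13 in ANLN at 48 h.

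CDK1 and its partners, a class in which the cyclin CCNF was also placed, fell in 9 of 9 genes at both times. Their summed level was 875 ± 80.0 CPM with DMSO and 464 ± 17.7 with PRT3789 at 48 h, and 819.8 ± 32.4 against 439.8 ± 8.34 at 72 h (SD, n = 3). The largest fall of the class at 72 h was in CDC25C (chr5:138285269-138338355), the phosphatase that takes the inhibitory phosphates off CDK1. Its libraries read 48.1, 50.9 and 56.5 CPM with DMSO and 22.6, 22.7 and 21.6 with PRT3789 at 48 h. The 72 h libraries read 47.5, 45.3 and 45.04 against 20.1, 19.6 and 18.6. All treated values were under the lowest control value, a fall of 2.33-fold at 48 h (log2FC -1.22 ± 0.09, here and below with its SE, adjusted p = 7.51e-09) and 2.36-fold after 72 h (-1.24 ± 0.09, adjusted p = 5.09e-09).

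CCNA2 (chr4:121816444-121823883) encodes cyclin A, which serves both DNA replication and the entry into mitosis. It was at 93.3, 93.5 and 103 CPM with DMSO and 54.3, 53.7 and 48.1 with PRT3789 at 48 h, and at 101, 99.4 and 101 against 51.7, 49.3 and 48.8 at 72 h. The groups lay apart, and the level in PRT3789 was 1.85-fold lower at 48 h (-0.89 ± 0.07, adjusted p = 7.92e-09) and 2.02-fold lower at 72 h (-1.01 ± 0.07, adjusted p = 1.22e-09). The mitotic cyclins had log2FC of -0.98 and -0.97 (CCNB1) and -1.22 and -1.15 (CCNB2) at 48 and 72 h. CDK1 itself had -0.86 and -0.75, CDC25B -0.58 and -0.89, and CKS1B -0.97 and -0.82.

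CKS2 (chr9:89311195-89316703), a small CDK-binding subunit, spread widely at 6 h: 99.1, 148 and 196 CPM with DMSO and 134, 103 and 178 with PRT3789. Its exonic length of 616 bases is the shortest of the 54. At 48 h it read 70.8, 88.8 and 87.9 against 48.1, 54.4 and 45.9, and at 72 h 81.7, 78.8 and 65.7 against 55.7, 44.7 and 49.5. No library overlapped at the later times, with log2FC of -0.74 ± 0.21 (adjusted p = 0.00967) and -0.59 ± 0.21 (adjusted p = 0.0307). The call at 72 h ended without a filter on low counts (adjusted p = 0.0777) and without DMSO 72 h replicate 1 or 2 or PRT3789 72 h replicate 2 or 3 (0.0717 to 0.102). CCNF, a cyclin that acts in a ubiquitin ligase, was the weakest of the class at 48 h (log2FC -0.38, adjusted p = 0.0428) and reached -0.89 at 72 h. Its 48 h call ended with total counts in place of TMM (0.115), without a filter (0.0631), with limma-voom (0.0541), and without DMSO 48 h replicate 1 or 2, DMSO 72 h replicate 1, PRT3789 6 h replicate 1 or any of the PRT3789 48 h replicates (0.0514 to 0.147).

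The 6 mitotic and checkpoint kinases all fell at both times, with medians of -0.72 at 48 h and -0.86 at 72 h. PLK1 (chr16:23677656-23690367), the polo-like kinase that promotes mitotic entry and spindle pole maturation, had the smallest p of the class. DMSO libraries read 95.0, 96.9 and 92.1 CPM at 48 h and 108, 103 and 105 at 72 h. PRT3789 libraries read 54.03, 53.5 and 52.3 at 48 h and 53.3, 50.7 and 50.2 at 72 h. The treated libraries were all close to each other and well under the controls, 1.78-fold lower at 48 h (-0.83 ± 0.06, adjusted p = 4.8e-09) and 2.05-fold lower at 72 h (-1.04 ± 0.06, adjusted p = 2.37e-10). At 6 h PLK1 was at 145, 134 and 129 CPM with DMSO and 139, 138 and 128 with PRT3789, overlapping, with a log2FC of -0.01 ± 0.06.

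AURKA (chr20:56369389-56392337), the Aurora kinase of the spindle poles, had the largest p of these kinases at 72 h. It still separated: 115, 119.9 and 128 CPM against 89.6, 85.2 and 85.4 at 48 h and 126, 122 and 119 against 81.6, 78.0 and 76.7 at 72 h. The fall was 1.40-fold (-0.48 ± 0.06, adjusted p = 5.33e-06) and 1.55-fold (-0.63 ± 0.06, adjusted p = 1.75e-07). NEK2, a kinase that splits the centrosomes, had log2FC of -0.94 and -1.08. The checkpoint kinases BUB1 (-0.68 and -0.90), TTK (-0.76 and -0.82) and BUB1B (-0.57 and -0.73) lay between. Some BUB1B reads are uncertain, since the readthrough gene BUB1B-PAK6 shares its sequence and was given 73 to 198 counts per library.

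The chromosomal passenger complex corrects faulty attachments of chromosomes to the spindle and later marks the site of cell division. All 3 of its genes among the 54 fell at both times. INCENP, another gene of the complex, is in the list of other mitotic genes below. By edgeR it was not called at 48 h (-0.29, adjusted p = 0.107) and was lower at 72 h (-0.83, adjusted p = 0.000126). CDCA8 (chr1:37692481-37709719), which encodes the subunit borealin, was at 66.0, 67.0 and 70.3 CPM with DMSO and 36.1, 37.5 and 35.3 with PRT3789 at 48 h. At 72 h the values were 71.5, 69.2 and 69.3 with DMSO against 34.6, 33.5 and 36.2 with PRT3789. These groups lay far apart for their spread, and the adjusted p of 1.64e-09 at 48 h was the lowest of the 54 genes (1.87-fold, -0.90 ± 0.06). At 72 h the fall was 2.01-fold (-1.01 ± 0.06, adjusted p = 3.13e-10).

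AURKB (chr17:8204733-8210600) is the kinase of the complex. It read 56.3, 61.2 and 64.0 CPM against 30.1, 30.0 and 27.9 at 48 h and 61.8, 61.4 and 60.8 against 28.3, 25.2 and 27.1 at 72 h, again without overlap. Its log2FC was -1.04 ± 0.11 (adjusted p = 8.17e-07) and -1.19 ± 0.11 (adjusted p = 1.39e-07). BIRC5, which encodes survivin, moved to a like extent (-0.99 and -1.11).

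The genes grouped under the anaphase-promoting complex and proteolysis had the lowest class medians, -1.19 at 48 h and -1.24 at 72 h, and 4 of 4 fell at both times. Within the class, PTTG1 and CDCA3 fell more than CDC20 and UBE2C at both times. PTTG1 (chr5:160421855-160428739) encodes securin, the inhibitor of separase that is destroyed at anaphase. It showed 126, 145 and 155 CPM with DMSO and 49.9, 50.5 and 49.3 with PRT3789 at 48 h, and 121, 109.5 and 106 against 42.6, 42.2 and 40.8 at 72 h. The treated libraries were all under the lowest control, and the 48 h fall of 2.85-fold was the largest of the 54 genes (-1.51 ± 0.16, adjusted p = 6.85e-07); at 72 h it was 2.67-fold (adjusted p = 1.24e-06). At 6 h PTTG1 varied from 159.7 to 268 CPM among the DMSO libraries and from 153 to 232 among the PRT3789 libraries. The near-identical copies PTTG2 and PTTG3P had 0 counts in every library.

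CDC20 (chr1:43358981-43363203), the activator of the anaphase-promoting complex that the spindle checkpoint restrains, was much less variable. The DMSO libraries held 135, 140.4 and 133 CPM at 48 h and 149, 132 and 137 at 72 h. The PRT3789 libraries held 72.2, 70.8 and 72.5 at 48 h and 70.2, 69.7 and 74.3 at 72 h. That is a clear gap at both times, 1.90-fold (-0.92 ± 0.06, adjusted p = 2.01e-09) and 1.95-fold (-0.97 ± 0.06, adjusted p = 9.01e-10). At 6 h its libraries overlapped, 181, 181 and 192 against 181, 174 and 193. The log2FC of CDCA3, which acts in a ligase for the CDK1 inhibitor WEE1, was -1.38 and -1.45, the second of these the largest fall at 72 h. That of the ubiquitin-conjugating enzyme UBE2C was -1.01 and -1.06.

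All 7 kinesin motors fell at both times, but over a wide range: their log2FC lay between -0.26 and -0.98 at 48 h and between -0.33 and -1.24 at 72 h. KIF20A (chr5:138178719-138187723), a motor of the central spindle needed to divide the cell, fell most. Its values were 160.3, 142 and 145 CPM with DMSO and 75.8, 72.9 and 78.9 with PRT3789 at 48 h, then 154, 153 and 147 with DMSO against 64.9, 66.7 and 60.2 with PRT3789 at 72 h. No treated library came near a control, and the adjusted p at 72 h, 1.03e-10, was the lowest of the 54 genes (2.36-fold, -1.24 ± 0.07). At 48 h the fall was 1.97-fold (-0.98 ± 0.07, adjusted p = 2.55e-09).

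KIF23 (chr15:69414246-69448427), a motor of the same central spindle, moved least among the kinesins. It read 94.0, 95.9 and 101 CPM with DMSO and 80.5, 82.6 and 80.4 with PRT3789 at 48 h and 109, 106 and 111 against 85.1, 90.9 and 83.2 at 72 h. The groups did not overlap, yet the fall was 1.19-fold (-0.26 ± 0.07, adjusted p = 0.00574) and 1.26-fold (-0.33 ± 0.07, adjusted p = 0.000609), and with total counts in place of TMM the 48 h call ended (adjusted p = 0.0667). KIF11, the motor that pushes the spindle poles apart, went from -0.35 at 48 h (adjusted p = 0.0241) to -0.72 at 72 h. Its 48 h call ended with total counts (0.0953) and without DMSO 48 h replicate 1 or 3 or PRT3789 48 h replicate 1 or 3 (0.0542 to 0.0765). KIF2C, which takes microtubules apart at faulty attachments, had -0.75 and -0.98, and the chromosome-bound KIF4A -0.81 and -0.92. KIF14 (-0.70 and -1.15) and KIF20B (-0.74 and -1.18) also act in cell division. The copy KIF4B had at most 2 counts in any library.

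Kinetochores join the centromeres to the spindle, and all 6 genes of this class fell at both times, with medians of -0.81 and -1.07. HJURP (chr2:233833416-233854566) loads the centromeric histone CENPA onto chromatin. It stood at 52.0, 52.5 and 54.3 CPM with DMSO and 32.2, 30.9 and 30.8 with PRT3789 at 48 h. At 72 h the libraries gave 51.8, 47.5 and 49.4 with DMSO against 27.3, 29.4 and 24.4 with PRT3789. Treated and control libraries were well separated, with log2FC of -0.76 ± 0.07 (adjusted p = 7.94e-08) and -0.87 ± 0.07 (adjusted p = 1.1e-08). At 6 h the values were 99.8, 107 and 106 in DMSO and 92.5, 96.8 and 97.2 in PRT3789, separate but not called (-0.13 ± 0.07, adjusted p = 0.404).

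CENPF (chr1:214603185-214664574), a large kinetochore protein that accumulates in G2, had the widest error of the class. It read 109.8, 86.8 and 89.8 CPM against 68.0, 63.1 and 61.4 at 48 h and 104, 114 and 126 against 58.9, 64.7 and 56.4 at 72 h. The groups lay apart at both times, with log2FC of -0.57 ± 0.16 (adjusted p = 0.00962) and -0.94 ± 0.16 (adjusted p = 0.000169). CENPA had -1.29 and -1.33, and the motor CENPE -0.78 and -1.21. NDC80 (-0.84 and -0.94) and NUF2 (-1.12 and -1.21) are partners in the complex that binds microtubules.

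The spindle and microtubule proteins were the largest class, and 11 of 11 fell at both times, with medians of -0.86 and -0.98. At 48 h their summed level was 1048 ± 36.0 CPM with DMSO and 582 ± 5.25 with PRT3789, and at 72 h it was 1107 ± 12.1 and 562 ± 7.62 (SD, n = 3). PRC1 (chr15:90966040-90995629) bundles the microtubules of the central spindle. Its libraries were at 124, 135 and 141 CPM with DMSO and 69.0, 66.7 and 66.7 with PRT3789 at 48 h, and at 138, 143 and 145 against 73.2, 70.0 and 72.8 at 72 h. The fall was of the same size at both times, -0.98 ± 0.07 (adjusted p = 4.39e-09) and -0.98 ± 0.07 (adjusted p = 3.48e-09), with no overlap.

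GTSE1 (chr22:46296870-46330810) is a microtubule-binding protein of G2 and mitosis. It was at 26.7, 28.9 and 28.5 CPM with DMSO and 16.0, 13.0 and 14.7 with PRT3789 at 48 h, and at 33.1, 32.2 and 33.4 with DMSO against 15.2, 14.5 and 13.3 with PRT3789 at 72 h. Control and treated libraries did not overlap, and the level was 1.92-fold lower at 48 h (-0.94 ± 0.08, adjusted p = 3.44e-08) and 2.29-fold lower at 72 h (-1.20 ± 0.08, adjusted p = 1.22e-09). PSRC1 (chr1:109279556-109283186), which promotes microtubule growth at the spindle, had few counts and a larger error. Its CPM values were 6.67, 8.88 and 8.63 against 3.84, 3.02 and 3.15 at 48 h and 9.54, 9.53 and 8.57 against 4.20, 3.67 and 3.96 at 72 h. The treated libraries were still all lower, 2.41-fold (-1.27 ± 0.15, adjusted p = 2.13e-06) and 2.33-fold (-1.22 ± 0.14, adjusted p = 2.08e-06).

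The log2FC at 48 and 72 h was -0.86 and -1.07 for TPX2, which activates Aurora A on the spindle, -0.89 and -1.03 for the crosslinker NUSAP1, and -0.76 and -0.88 for TACC3, which stabilises kinetochore fibres. It was -0.86 and -0.83 for HMMR, -0.78 and -0.96 for DLGAP5, and -0.82 and -1.03 for FAM83D, all spindle-associated. The related proteins CKAP2 (-0.73 and -0.87) and CKAP2L (-0.74 and -0.82) completed the class.

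Cytokinesis, the physical division of the cell, gave the smallest class median at 48 h (-0.46), and 2 of its 3 genes fell. RACGAP1 (chr12:49976923-50033136) forms the centralspindlin complex with KIF23. It was at 169.6, 175 and 191 CPM with DMSO and 112, 113 and 113 with PRT3789 at 48 h and at 196, 189.9 and 180.5 against 111, 114 and 103 at 72 h. The groups were far apart, -0.66 ± 0.06 (adjusted p = 1.68e-07) and -0.78 ± 0.06 (adjusted p = 1.69e-08). ECT2, the exchange factor that RACGAP1 recruits to start the contractile ring, had -0.46 and -0.73.

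ANLN (chr7:36389821-36453791), which encodes anillin, a scaffold of actin and myosin in that ring, was not called at any time. DMSO libraries had 271, 249 and 268 CPM at 48 h and 320.0, 308 and 326 at 72 h. PRT3789 libraries had 235, 244 and 239 at 48 h and 287, 299 and 255 at 72 h. These values do not overlap within a time, but the estimate was -0.13 ± 0.09 at 48 h (adjusted p = 0.235) and -0.18 ± 0.09 at 72 h (adjusted p = 0.104). The 72 h value was called when each time was fitted apart (adjusted p = 0.00472) and without DMSO 6 h replicate 1 (0.0377). That library was the highest of the 6 h libraries for ANLN, whose values were 471, 395 and 378 in DMSO and 398, 414 and 343 in PRT3789.

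Of the 3 genes of chromosome structure, TOP2A and CDCA2 fell at both times, and MKI67 was called only at 72 h. MKI67 (chr10:128096659-128126423) encodes the Ki-67 antigen, a coat of mitotic chromosomes used as a marker of proliferating cells. It read 132, 134 and 107 CPM with DMSO and 102, 79.4 and 87.5 with PRT3789 at 48 h, and 162, 197 and 239.5 against 88.0, 91.7 and 87.3 at 72 h. Treated libraries were below the controls at both times, with log2FC of -0.47 ± 0.19 at 48 h (adjusted p = 0.0516) and -1.16 ± 0.19 at 72 h (adjusted p = 8.16e-05). The difference between these effects was not called (-0.69 ± 0.26, adjusted p = 0.467). At 6 h the libraries spread widely, 178, 123 and 105 in DMSO and 124, 169 and 112 in PRT3789. With 12845 exonic bases it is the longest of the 54, and DMSO replicate 1 and PRT3789 replicate 2 were its highest and the lowest for CKS2. The 48 h value was called in DESeq2 (0.0239), in limma-voom (0.0479), with DESeq2 size factors (0.0429), with a filter of 1 CPM (0.0423), with each time fitted apart (0.00312), with the length trend removed (0.00358), with a replicate block within each time (0.0474), and without DMSO 6 h replicate 1 or 3, PRT3789 6 h replicate 2 or 3, DMSO 48 h replicate 3, PRT3789 48 h replicate 1 or DMSO 72 h replicate 1 or 3 (0.0193 to 0.0477).

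CDCA2 (chr8:25459199-25507911), which targets a phosphatase to chromosomes at anaphase, was steadier. Its libraries held 62.6, 64.5 and 66.7 CPM against 43.9, 43.0 and 43.6 at 48 h and 72.1, 70.2 and 71.6 against 39.9, 43.7 and 38.2 at 72 h. The groups were separate, with falls of 1.49-fold (-0.57 ± 0.08, adjusted p = 2.21e-05) and 1.75-fold (-0.81 ± 0.08, adjusted p = 3.13e-07). TOP2A, the topoisomerase that untangles sister chromatids, had log2FC of -0.58 and -0.87.

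Both transcription factors fell at both times. FOXM1 (chr12:2857680-2877174), the forkhead activator of late cell cycle genes, was at 71.8, 68.7 and 63.3 CPM with DMSO and 39.1, 37.1 and 36.2 with PRT3789 at 48 h. The 72 h values were 80.1, 79.3 and 86.0 with DMSO against 37.5, 38.2 and 37.8 with PRT3789. The treated libraries were far below the controls, 1.81-fold (-0.86 ± 0.10, adjusted p = 1.55e-06) and 2.16-fold (-1.11 ± 0.10, adjusted p = 5.27e-08). MYBL2 (chr20:43667019-43716495), which binds MuvB in S phase, read 106, 94.8 and 82.3 CPM against 74.0, 67.0 and 72.6 at 48 h and 113, 113 and 114 against 66.1, 67.7 and 67.5 at 72 h. It did not overlap, with log2FC of -0.41 ± 0.12 (adjusted p = 0.00934) and -0.76 ± 0.12 (adjusted p = 3.83e-05), and its 48 h call ended with the length trend removed (adjusted p = 0.173) and without DMSO 48 h replicate 1 (0.0527).

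**Figure D4:**
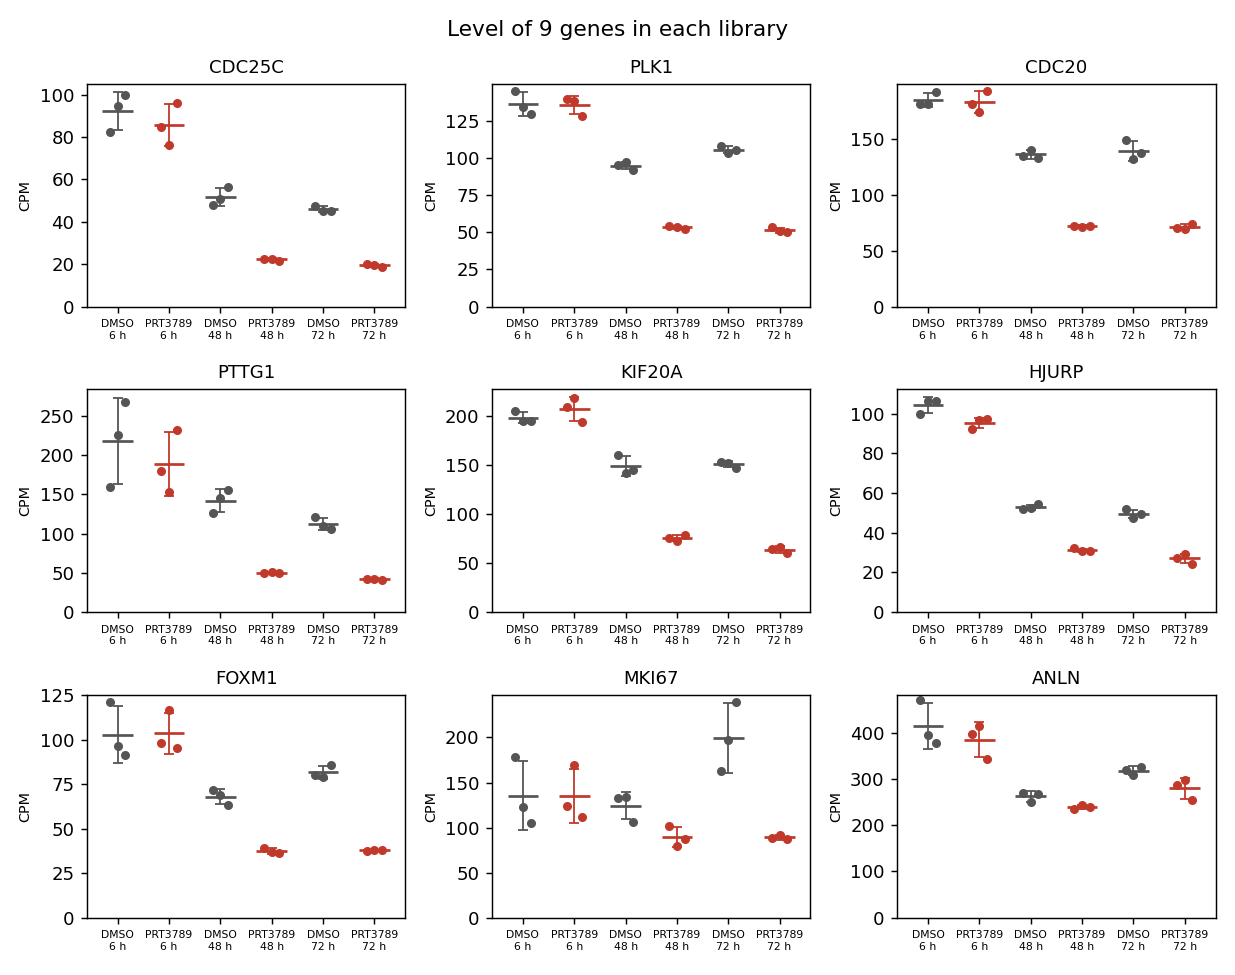
CPM of 9 of the genes in each library (points), with the mean (line) and SD (bar) of the 3 libraries of a group, DMSO in grey and PRT3789 in red, each gene on its own axis from 0. In CDC25C, PLK1, CDC20, PTTG1, KIF20A, HJURP and FOXM1 the treated libraries of 48 and 72 h sit together far below the controls, in MKI67 the gap is wide at 72 h, and in ANLN it is narrow at both times.

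The size of the 48 h effect varied with transcript length among the 54 genes, whose exonic length ran from 616 to 12845 bases. The Spearman correlation of length with log2FC across the 54 was 0.397 at 6 h, 0.582 at 48 h and 0.184 at 72 h, against 0.134, 0.16 and -0.002 over all genes of known length. Shorter genes thus had the more negative values at 48 h. Genes share their libraries and are not independent replicates. The length trend of the 48 h libraries, negative in DMSO and positive in PRT3789, moves with this result. With the length trend of each library removed, a step chosen after seeing the data, the correlation was 0.256 at 48 h and 0.158 at 72 h. The median log2FC of the 54 was then -0.74 and -0.92. That trend was fitted to deviations from the mean of all libraries of a time, DMSO and PRT3789 together. Its removal thus also takes out any treatment difference that varies with length, and cannot tell it from a technical trend. By promoter, the 34 genes with a searched form of the CHR (TTTGAA or TTCGAA) in a window had a median log2FC of -0.94 at 72 h. The 11 with windows but neither form had -1.01, and other forms were not searched. The 36 genes with CCAAT had -0.97 and the 9 without it -0.88.

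The program also fell with time in culture, in DMSO alone. At 48 h 49 of the 54 genes were lower in DMSO than at 6 h, where 20.1% of all genes were called lower, and none was higher, where 17.1% were (edgeR, same fit). The median log2FC was -0.65, and the summed level fell to 64.3% of that at 6 h. CDK1 had the largest fall (-1.28 ± 0.14, adjusted p = 2.52e-06), from 162, 198 and 217 CPM at 6 h to 67.9, 73.3 and 95.8 at 48 h, with no overlap. The 5 genes not called were CENPF (0.02), MKI67 (-0.12), CDC25B (-0.20), CENPE (-0.26) and PSRC1 (-0.29). In PRT3789, 54 of 54 were lower at 48 h than at 6 h, with a median of -1.42, beside 28.8% of all genes, and none was higher, beside 28%.

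Because DMSO fell too, the effect of PRT3789 at 48 h was tested against that at 6 h in an interaction term. It was more negative for 47 of the 54 genes, beside 10.4% of all genes, and more positive for none, beside 8.83%. This test shares its libraries with the comparisons above. The change in log2FC had a median of -0.77 and was largest in CDCA3 (-1.31 ± 0.14, adjusted p = 3.81e-06), followed by PTTG1 (-1.30 ± 0.22, adjusted p = 0.000378). The 7 genes without a call were ANLN (-0.03), KIF23 (-0.20), KIF11 (-0.39), MKI67 (-0.47), CCNF (-0.49), CENPF (-0.64) and CKS2 (-0.64).

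Between 48 and 72 h little was called. The effect of PRT3789 changed for 0 of the 54 genes in either direction, as for 0% of all genes lower and 0% higher by edgeR. At an unadjusted p under 0.05, 14 of the 54 were more negative at 72 h in edgeR, 12 in DESeq2 and 13 in limma-voom, and none was more positive. Of all 16291 genes, 801 were more negative and 675 more positive at that level in edgeR, and DESeq2 called 103 and limma-voom 0 after adjustment. The largest of these shifts were in MKI67 (-0.69), CCNF (-0.51) and KIF14 (-0.45). In DMSO edgeR called 0 of the 54 lower (0.153% of all genes) and 0 higher (0.387%), with 3 lower and 14 higher at an unadjusted p under 0.05, beside 1366 and 1855 of all genes. DESeq2 called 2 of the 54 and 554 of all genes, and limma-voom 0 and 119. In PRT3789 it called 0 lower (0.448%) and 0 higher (0.994%), with 9 and 1 at an unadjusted p under 0.05, beside 925 and 1161 of all genes. There DESeq2 called 1 of the 54 and 559 of all genes, and limma-voom 0 and 283. MKI67 had the largest positive estimate in DMSO, which was not called, at 132, 134 and 107 CPM and then 162, 197 and 239.5 (0.68 ± 0.19, adjusted p = 0.107).

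Lists of other cell cycle genes give the surroundings of these changes. Of 48 other mitotic genes, 39 were lower and 2 higher in PRT3789 at 48 h, and 45 and 1 at 72 h, with medians of -0.54 and -0.72. Of all genes, 20.9% were lower and 21.2% higher at 48 h, and 22% and 21.3% at 72 h. CEP55, which acts in the final cut between daughter cells, had -0.99 and -1.22, and SPAG5, a spindle protein, -0.87 and -1.10 at 48 and 72 h. Against this direction, the kinetochore gene CENPI was higher at 48 h (0.26), as was the cyclin CCNB3 at both times (0.65 and 0.46). At 6 h 2 of these 48 genes were called higher, beside 1.28% of all genes, and 0 lower, beside 3.04%. These were CENPI (0.28, edgeR adjusted p = 0.0449) and KIFC1 (0.21, adjusted p = 0.0381), both close to the threshold. KIFC1 was lower at 48 and 72 h (-0.51 and -0.67). Among 34 genes of S phase, falls were called for 19 at 48 h and 30 at 72 h, and rises for none, beside the 48 and 72 h shares given above. Their medians were -0.28 and -0.53. RRM2 of nucleotide synthesis had -0.50 and -0.68 and the flap nuclease FEN1 -0.49 and -0.59. In DMSO from 6 to 48 h, all 34 S phase genes fell, beside 20.1% of all genes. Their median was -1.01, against -0.65 for the 54.

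The MuvB complex, the E2F factors and the pocket proteins control when these genes are transcribed. Of 19 of their genes, 6 were lower and 3 higher at 48 h, and 7 and 4 at 72 h, where 20.9% of all genes were lower and 21.2% higher at 48 h, and 22% and 21.3% at 72 h. The repressor E2F8 (-0.49 and -0.77) and the pocket protein RBL2 (-0.42 and -0.61) were lower. LIN54 (0.79 and 0.60), the MuvB subunit that binds the CHR, was higher, as were MYBL1 (0.67 and 0.40) and E2F5 (0.37 and 0.38), and TFDP2 at 72 h (0.20). Among 15 subunits of the anaphase-promoting complex, 4 were lower and 1 higher at 48 h, and 5 and 2 at 72 h, beside the same shares of all genes, so nothing particular to either list is read from its counts. CDC16 was higher at both times (0.28 and 0.37) and ANAPC13 at 72 h (0.24), while ANAPC5 was lower (-0.35 and -0.21).

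Of 10 genes of the G2 checkpoint and of CDK1 inhibition, 6 were lower and 3 higher at both times. Of all genes, 20.9% were lower and 21.2% higher at 48 h, and 22% and 21.3% at 72 h. WEE1, the kinase that inhibits CDK1, rose (0.71 and 0.78), as did GADD45A, a stress gene of the G2 checkpoint (0.73 and 1.27), and CDKN1B, which encodes the CDK inhibitor p27 (0.36 and 0.59). CDKN1A, which encodes the CDK inhibitor p21, fell (-1.51 and -1.06). So did SFN (-0.69 and -0.66), PKMYT1 (-0.49 and -0.57), CHEK2 (-0.48 and -0.73) and CHEK1 (-0.18 and -0.37). CDKN1C fell as well (-1.28 and -1.05), at only 19 to 94 counts per library. At 6 h, when none of the 54 genes was called, CDKN1A (-0.58) and GADD45A (-0.49) were both lower.

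**Figure D5:**
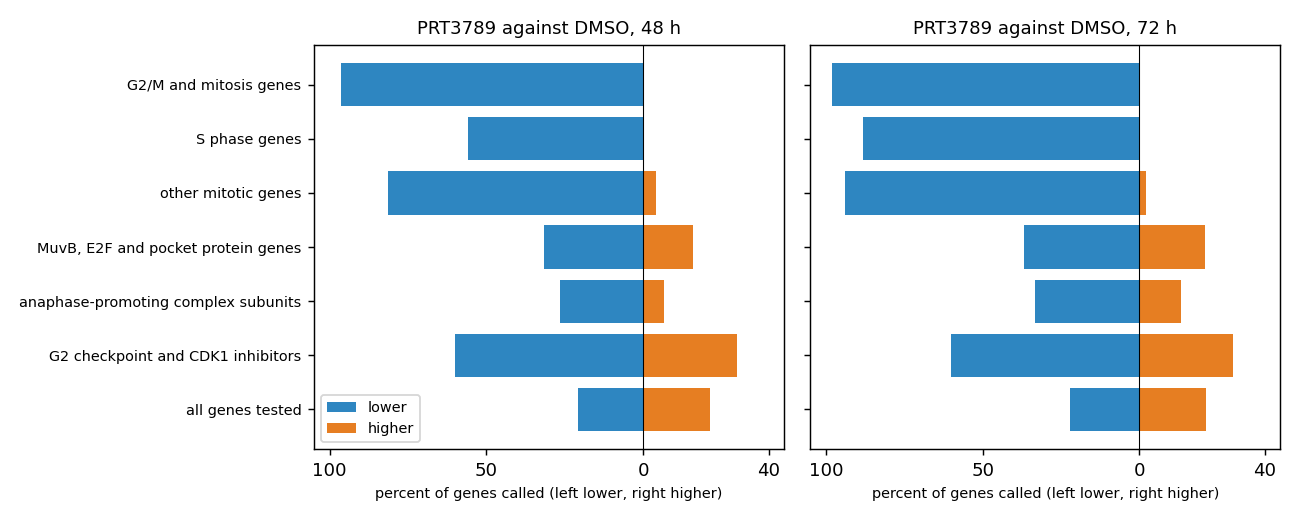
Percent of the tested genes of each list called lower (blue, to the left) or higher (orange, to the right) in PRT3789 at 48 h (left panel) and 72 h (right panel). The 54 G2/M and mitosis genes have only blue bars, as have the 34 S phase genes, while the bars of all genes tested are near 20% on both sides (20.9% and 21.2% at 48 h, 22% and 21.3% at 72 h).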

How the data were processed

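The authors deposited expected counts per gene symbol, estimated with RSEM after nf-core/rnaseq 3.17.0 (Trim Galore, STAR, GRCh38 patch 14, annotation release 110), per the labels; libraries were poly(A)-selected, strand-specific and read as 150 bp pairs. All values were already whole numbers. Groups came from the labels. Genes were kept by filterByExpr (16291; the rest held at most 0.0482% of a library's counts), scaled by TMM and tested in 1 model of the 18 libraries with edgeR 4.0.16 (R 4.3.3, robust quasi-likelihood F tests, two-sided, Benjamini-Hochberg over all genes). CPM use TMM-scaled totals, and reads carry no molecular identifiers. Gene coordinates and exonic lengths are from GENCODE 44. The fit was tested on simulated data. Named genes (22) were, per class, those with the smallest p at 48 and at 72 h and the largest at 72 h, and any not called at 48 or 72 h; others are given by log2FC. The members and lists were chosen with earlier results of these data known. Alternatives were DESeq2 1.42.0 and its size factors, total counts, no filter or 1 CPM in 3 libraries, limma-voom (limma 3.58.1), a replicate block, each time alone, each library left out, and removal of each library's length trend.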

Additional observations from a re-analysis of the deposited data

Results flagged for a closer look

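The effect of PRT3789 differed between 6 and 48 h by the interaction test for 47 of the 54 genes, each more negative at 48 h. Of all genes, 10.4% were more negative and 8.83% more positive. Among the genes named above, the change in log2FC from 6 to 48 h was -0.83 in CCNA2, -1.11 in CDC25C, -0.82 in PLK1, -0.53 in AURKA, -0.98 in AURKB, -0.91 in CDCA8 and -0.91 in CDC20. It was -1.30 in PTTG1, -1.04 in KIF20A, -0.63 in HJURP, -0.98 in PRC1, -0.92 in GTSE1, -1.20 in PSRC1 and -0.68 in RACGAP1. CDCA2 changed by -0.54, FOXM1 by -0.87 and MYBL2 by -0.48. ANLN, KIF23, MKI67, CENPF and CKS2, also named above, were not called, and their values are given with the interaction test. With 3 libraries in a group, single outlying libraries were not tested for.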

How the results depend on the processing

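The count of the 54 genes called lower in PRT3789 stayed between 49 and 53 at 48 h and between 52 and 54 at 72 h over 10 other settings of the fit, and over the same ranges when each of the 18 libraries was left out in turn. Genes with a more negative effect at 48 h than at 6 h numbered 46 to 50 over the settings and 44 to 51 with a library left out. With the stricter thresholds, 50 and 52 were lower at an adjusted p under 0.01 and 41 and 52 by at least 1.5-fold at 48 and 72 h, 43 and 40 had the more negative effect at 48 h, and 49 and 35 fell in DMSO from 6 to 48 h. Of 3024 values of single genes under alternatives, 2984 kept direction and side of the threshold, 23 lost the call, 17 gained it and 0 reversed. Between 48 and 72 h in DMSO, DESeq2 called 2 of the 54 genes higher, as did removal of the length trend, an alternative chosen after seeing the data (2), and leaving out a library gave 0 to 3, with 3 without DMSO 6 h replicate 1. In PRT3789 over the same interval, DESeq2 called 1 gene lower and removal of the length trend 1. The cause was not tested.

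Replicate numbers were not used as pairs: across 11059 genes, the deviations of same-numbered DMSO and PRT3789 libraries from their group means correlated between -0.454 and 0.771 over the 9 pairs. With a replicate block within each time, 53 genes were lower at 48 h and 53 at 72 h; with a replicate block over all groups, 52 and 53. Scaling by total counts moved the median log2FC of all genes at 48 h to 0.07 and that of the 54 genes to -0.76. The 6 h libraries spread more than the later ones while the model pools the spread over times, which makes the p-values of 6 h less certain. PSRC1 had the fewest counts of the named genes, 3.02 to 10.97 CPM per library.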
